A study of Homo sapiens with 8 samples.

Results

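IGFN1, GSPT2, TRIM38, GLIPR1, HTR1F and GGT5 are 6 of the 60554 gene rows in the count files of this study. They were picked because each was near silent in one variant of the DU145 cell line and expressed in the other. IGFN1, GSPT2, TRIM38, GLIPR1 and HTR1F were expressed in docetaxel resistant DU145 cells, and GGT5 was expressed in docetaxel sensitive DU145 cells. The genes were thus chosen by their counts in the DU145 libraries, and the DU145 values of the 6 genes are given as a description with no test. The reason for the choice used no PC3 value, so the resistant against sensitive difference in PC3 was tested. Earlier results of these data were known when the genes were chosen, so PC3 values may still have played a part.

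The study sequenced bulk RNA from DU145 and PC3, established human prostate cancer lines grown from metastases, each as a docetaxel resistant and a docetaxel sensitive variant. Docetaxel is a taxane that binds microtubules and blocks their disassembly, and it is a standard chemotherapy of advanced prostate cancer. There were 8 libraries, 2 for each of 4 groups: DU145 resistant, DU145 sensitive, PC3 resistant and PC3 sensitive. Per the labels, the resistant variants were maintained in 10 nM docetaxel and the sensitive variants in 0.1% DMSO, all in RPMI medium with serum. Each resistant variant is a single derived line, so what belongs to resistance and what belongs to that derivation cannot be told apart. The sources used here do not state whether the drug was withdrawn before harvest of the bulk RNA. For single cell libraries of these variants, the authors' paper reports a week without docetaxel before the cells were taken. Nothing states that the 2 libraries of a group were separate cultures, so p-values reflect only the spread between the 2 samples of a group, and part or all of that spread may be technical.

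Levels are given as raw counts and as CPM, counts scaled to a common library total after TMM normalization. Total counts ran from 31685148 to 43045127 per library. The labelled lines were checked on CTNNA1, the alpha catenin gene that PC3 is known to have lost, which stood at 474 to 559 CPM in DU145 libraries and at 2.06 to 3.34 CPM in PC3 libraries. EPCAM, an epithelial surface marker, was at 16.9 to 21.7 CPM in all DU145 libraries. Other epithelial markers moved with the DU145 contrast in which the 6 genes were chosen. KRT8 was at 28.2 and 29.7 CPM in DU145 resistant libraries, against 2170 and 1250 CPM in DU145 sensitive libraries, and CDH1 was at 0.364 and 0.472 CPM against 24.2 and 20.9 CPM. Of the 5 epithelial markers, 4 were lower and 0 higher in DU145 resistant cells by edgeR (also 0 higher at an unadjusted p under 0.05 and by DESeq2), and their part in the results was not tested. The summed level of 5 leukocyte markers was 0.705 to 2.88 CPM in all 8 libraries, with CD3E and MS4A1 at 0. The summed level of 4 endothelial markers moved with the PC3 contrast, at 20 and 49 CPM in PC3 resistant against 7.10 and 7.23 CPM in PC3 sensitive libraries, and was at most 1.40 CPM in DU145. The VEGF receptor gene KDR had a PC3 log2 fold change of 5.95 (edgeR adjusted p 0.000134) and PECAM1 one of 1.44 (adjusted p 0.00433, and 0.0550 without PC3 resistant replicate 2), while the defining markers CDH5 and VWF were at 0.292 CPM or less in every PC3 library. In bulk libraries, fewer cells that express a gene and less RNA of that gene in each cell cannot be told apart.

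The 6 genes have unlike roles. GSPT2 encodes eRF3b, a GTPase that works with eRF1 to release the finished protein at stop codons, and it is an intronless retrocopy of GSPT1. TRIM38 encodes a RING-type E3 ubiquitin ligase that tunes signalling from Toll-like and RIG-I-like receptors. IGFN1 encodes a large immunoglobulin and fibronectin domain protein best known from skeletal muscle. GLIPR1 encodes a glycoprotein of the CAP family and is a known p53 target. HTR1F encodes a serotonin receptor that couples to inhibitory G proteins. GGT5 encodes a cell surface gamma-glutamyl transferase that converts leukotriene C4 to leukotriene D4.

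Promoter windows are shown first, since 4 genes that were silent in the same sensitive cells had starts of unlike CG content. Of the 6 genes, 4 were matched to the RefSeq windows (GRCh38.p14) used here. Each window runs from 250 bases before to 50 bases after the start and is printed 5′ to 3′ on the gene's own strand, which is + for all 4, with CG dinucleotides in capitals. The windows are IGFN1 at chr1:201190574-201190873, GSPT2 at chrX:51743192-51743491, TRIM38 at chr6:25962552-25962851 and the first of 2 HTR1F windows at chr3:87792456-87792755.
IGFN1: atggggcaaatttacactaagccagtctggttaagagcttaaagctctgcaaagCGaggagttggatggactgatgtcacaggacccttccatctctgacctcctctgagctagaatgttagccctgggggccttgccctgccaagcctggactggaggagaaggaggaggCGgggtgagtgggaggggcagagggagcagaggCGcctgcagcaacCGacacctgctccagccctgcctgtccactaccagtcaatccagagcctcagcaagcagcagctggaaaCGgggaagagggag
GSPT2: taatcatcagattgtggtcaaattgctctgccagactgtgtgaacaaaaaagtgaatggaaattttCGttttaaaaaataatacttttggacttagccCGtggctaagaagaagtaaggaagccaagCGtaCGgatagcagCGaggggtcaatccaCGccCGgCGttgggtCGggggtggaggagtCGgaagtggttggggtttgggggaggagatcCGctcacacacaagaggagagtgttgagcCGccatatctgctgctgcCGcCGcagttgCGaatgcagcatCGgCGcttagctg
TRIM38: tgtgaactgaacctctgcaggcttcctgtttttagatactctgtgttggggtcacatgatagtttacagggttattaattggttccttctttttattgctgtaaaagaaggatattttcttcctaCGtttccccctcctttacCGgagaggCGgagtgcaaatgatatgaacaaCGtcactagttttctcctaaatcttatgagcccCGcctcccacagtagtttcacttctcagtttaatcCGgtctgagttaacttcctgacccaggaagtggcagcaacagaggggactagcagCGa
HTR1F: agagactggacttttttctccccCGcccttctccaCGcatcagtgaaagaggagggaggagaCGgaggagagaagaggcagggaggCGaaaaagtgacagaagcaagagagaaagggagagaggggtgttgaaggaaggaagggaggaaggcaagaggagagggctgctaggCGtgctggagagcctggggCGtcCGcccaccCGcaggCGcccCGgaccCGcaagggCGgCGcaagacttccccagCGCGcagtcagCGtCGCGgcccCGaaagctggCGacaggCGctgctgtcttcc

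The GSPT2 window was dense in CG for its base composition and the IGFN1 window was sparse. GSPT2 held 17 CG dinucleotides at a GC content of 51.7%, an observed to expected CG ratio of 0.91 that 18.5% of all 34943 RefSeq windows reached. IGFN1 held 5 at 58.7% GC, a ratio of 0.20 that 78.6% of windows reached. TRIM38 held 7 at 44.7% GC, a ratio of 0.47. The first HTR1F window held 21 at 64.0% GC, a ratio of 0.71, and the second, at chr3:87982326-87982625, held 3 at 41.3% GC, a ratio of 0.24. The median ratio of all windows was 0.58. On both strands, 5 motifs were searched. Of all windows, 44.9% held GGGCGG, 11.6% held TATAAA, 8.1% held GAAANNGAA, 7.23% held CACGTG and 4.96% held TGACTCA. The first HTR1F window held GGGCGG 3 times, the second held GAAANNGAA once, and the windows of IGFN1, GSPT2 and TRIM38 held none of the 5. These are matches of letters in a reference genome and no measurement on these cells.

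In DU145, the 5 genes expressed in resistant cells were below 1 CPM in both sensitive libraries, and GGT5 had the reverse pattern. IGFN1 (ENSG00000163395.16, chr1:201190824-201228952, + strand, hg38) had 2311 and 1988 counts in DU145 resistant libraries, against 4 and 4 counts in DU145 sensitive libraries. As CPM these were 70.0 and 55.2 in resistant and 0.112 and 0.113 in sensitive libraries. The ratio of the pooled, scaled counts was 551, with an exact 95% interval of 279 to 1280. The intervals on such ratios pool the counts of the 2 libraries of a variant, so they cover counting error only. They leave out the spread between libraries, and the reads carry no molecular identifiers. In DU145 the genes were chosen by these same counts, so the choice itself fixed that the ratios are large. The DU145 intervals therefore describe counting error and are no test of a difference. IGFN1 had the highest mean of all genes silent in DU145 sensitive and expressed in DU145 resistant cells.

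GSPT2 (ENSG00000189369.8, chrX:51743442-51746232, + strand), the termination factor gene, had 682 and 551 counts in DU145 resistant libraries, against 3 and 5 in DU145 sensitive libraries. Its levels were 20.7 and 15.3 CPM in resistant and 0.0841 and 0.141 CPM in sensitive cells, a count ratio of 158 (80.0 to 367). No stretch of 50 bases of its transcripts was shared with another gene, GSPT1 included. GSPT1, the main eRF3 gene, was at 240 ± 30.1 CPM in DU145 resistant and 262 ± 28.8 CPM in DU145 sensitive cells (SD, n = 2 each). The GSPT1 log2 fold change was -0.13 ± 0.14 (SE), with an edgeR adjusted p of 0.561. On the scale of CPM per kb of exon, the mean level in DU145 resistant cells was 6.44 for GSPT2, 6.15 for HTR1F, 5.17 for IGFN1, 2.82 for GLIPR1 and 1.89 for TRIM38. The order differed between the 2 libraries: HTR1F was at 9.57 and 2.74 in replicates 1 and 2, GSPT2 at 7.41 and 5.48, IGFN1 at 5.78 and 4.56, GLIPR1 at 4.49 and 1.16, and TRIM38 at 1.67 and 2.10.

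TRIM38 (ENSG00000112343.10, chr6:25962802-25991231, + strand), the ubiquitin ligase gene, had 520 and 713 counts in DU145 resistant libraries, against 19 and 12 in DU145 sensitive libraries. The levels were 15.8 and 19.8 CPM in resistant and 0.533 and 0.338 CPM in sensitive cells, a ratio of 40.8 (28.6 to 60.3). TRIM38 was therefore low but above a few reads in sensitive cells. Of its 50-base stretches, 0.544% occurred in other genes on the same strand and 2.82% on the opposite strand.

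GLIPR1 (ENSG00000139278.9, chr12:75480753-75503863, + strand), the CAP family gene, had 920 and 259 counts in DU145 resistant libraries, against 18 and 23 in DU145 sensitive libraries. Its levels were 27.9 and 7.19 CPM in resistant and 0.505 and 0.649 CPM in sensitive cells, a ratio of 29.5 (21.6 to 41.3). The 2 resistant libraries were 3.88-fold apart, and even the lower one stood above both sensitive libraries. KRR1, a ribosome biogenesis gene on the other strand (chr12:75490863-75511636), overlaps GLIPR1, and 21.1% of the 50-base stretches of GLIPR1 were also in KRR1. No source used here gives the strand setting of the counting, so reads from this overlap may belong to either gene. KRR1 was at 167 and 168 CPM in DU145 resistant and 109 and 93.3 CPM in DU145 sensitive cells, so it was well expressed in the libraries where GLIPR1 had 18 and 23 counts.

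HTR1F (ENSG00000179097.5, chr3:87792706-87993839, + strand), the serotonin receptor gene, had 1069 and 334 counts in DU145 resistant libraries, against 19 and 8 in DU145 sensitive libraries. The levels were 32.4 and 9.27 CPM in resistant and 0.533 and 0.226 CPM in sensitive cells, a ratio of 53.3 (36.5 to 81.2). As with GLIPR1, resistant replicate 1 was the higher library, by 3.49-fold.

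GGT5 (ENSG00000099998.17, chr22:24219654-24245108, - strand), the leukotriene C4 processing enzyme, had 1 and 2 counts in DU145 resistant libraries, against 1729 and 992 in DU145 sensitive libraries. Its levels were 0.0303 and 0.0555 CPM in resistant and 48.5 and 28.0 CPM in sensitive cells. The ratio of DU145 sensitive over resistant counts was 884 (302 to 4290), the widest interval of the 6, since 3 reads in all stood in the resistant libraries. Of its 50-base stretches, 4.53% were shared with other genes on the same strand. GGT1, the best known gene of the family, was at 1.28 ± 0.699 CPM in DU145 resistant and 1.70 ± 0.226 CPM in DU145 sensitive cells (SD, n = 2 each), with an edgeR adjusted p of 0.653.

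**Figure D1:**
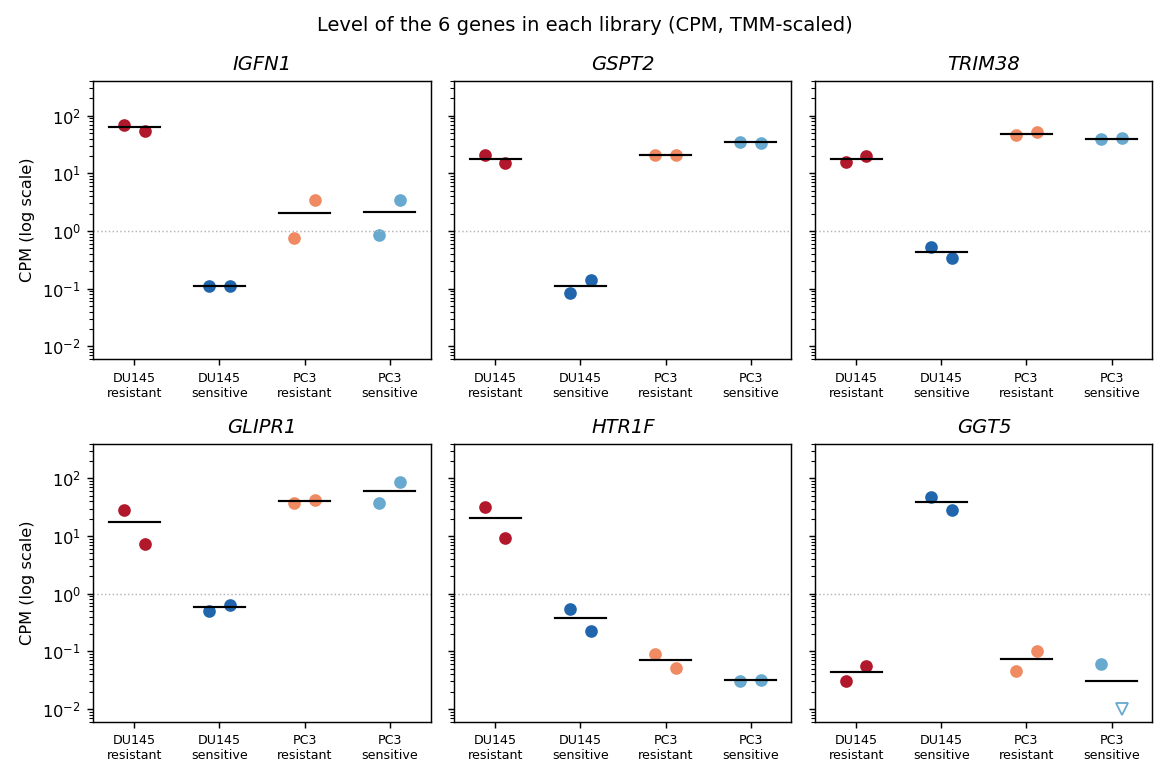
Level of each gene in the 8 libraries. The x axis gives the 4 groups, the y axis CPM on a log scale, each point is 1 library, bars are means of 2 libraries, the open triangle is a library with 0 counts and the dotted line is 1 CPM. GSPT2, TRIM38 and GLIPR1 stood at 20.9 CPM or more in every PC3 library, HTR1F and GGT5 at 0.101 CPM or less, and IGFN1 between 0.763 and 3.50 CPM.

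The 2 PC3 variants split the 6 genes into 3 that PC3 cells expressed whatever their docetaxel response, 2 that they did not express and 1 in between. None of the 6 was switched on or off between the PC3 variants. HTR1F and GGT5 had 8 counts each over the 4 PC3 libraries and passed the filter on low counts only through DU145, so their PC3 difference could not be read. The other 4 had at least 10 counts in every PC3 library. In edgeR's quasi-likelihood test with Benjamini-Hochberg adjustment over 20238 genes, 1 of these 4 differed between PC3 resistant and PC3 sensitive cells, and 35.6% of all tested genes did. The ranges of the 2 PC3 groups did not overlap for 2 of the 4 (GSPT2 and TRIM38), against 71.2% of all tested genes. In DU145, where non-overlap follows from the choice, it held for all 6 and for 61.3% of tested genes.

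GSPT2 was the gene that passed, and in PC3 it was lower in resistant cells, whereas in DU145 it was higher. The difference between the lines was not tested, since the DU145 values chose the gene. It was at 20.9 and 21.0 CPM in PC3 resistant libraries, against 35.4 and 33.3 CPM in PC3 sensitive libraries. The log2 fold change was -0.71 ± 0.19 (SE), with an edgeR adjusted p of 0.0138. The call did not hold when 1 library was left out: the adjusted p was 0.0629 and 0.0646 without PC3 resistant replicate 1 and 2 in turn, and 0.0972 and 0.0609 without PC3 sensitive replicate 1 and 2. The fold change stayed between -0.76 and -0.67 in those 4 fits. Mean GSPT2 in PC3 resistant cells was 117% of its mean in DU145 resistant cells, and in PC3 sensitive cells 191%. The order of the group means was PC3 sensitive, PC3 resistant, DU145 resistant and DU145 sensitive from high to low, and no neighbours in that order overlapped. The resistant groups of the 2 lines nearly met, however. The PC3 resistant mean was 101% of DU145 resistant replicate 1, which was at 20.7 CPM, and 137% of replicate 2.

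TRIM38 was at 46.4 and 51.7 CPM in PC3 resistant libraries, against 39.4 and 40.8 CPM in PC3 sensitive libraries. Its PC3 log2 fold change of 0.29 ± 0.18 (SE) did not pass, with an edgeR adjusted p of 0.229, although the ranges did not overlap. The PC3 means were 276% (resistant) and 226% (sensitive) of the DU145 resistant mean. From high to low the groups ran PC3 resistant, PC3 sensitive, DU145 resistant and DU145 sensitive, with no overlap between neighbours.

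GLIPR1 was at 37.9 and 42.8 CPM in PC3 resistant libraries, against 37.3 and 86.1 CPM in PC3 sensitive libraries. The PC3 groups overlapped, and the log2 fold change of -0.61 ± 0.50 (SE) had an edgeR adjusted p of 0.374. That SE also carries the spread between DU145 libraries. With PC3 fitted alone it was 0.32, with an edgeR adjusted p of 0.165. PC3 sensitive replicate 2 decided its sign: without it the log2 fold change was 0.11, with an adjusted p of 0.92. With no filter on low counts, the edgeR adjusted p was 0.0215. KRR1, which overlaps GLIPR1, was at 91.6 and 80.1 CPM in PC3 resistant and 128 and 130 CPM in PC3 sensitive cells. Both PC3 variants had more GLIPR1 than either DU145 variant, at 230% (resistant) and 352% (sensitive) of the DU145 resistant mean. Set against DU145 resistant replicate 2 alone, the lower library, these shares were 562% and 858%.

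IGFN1 was low in PC3, and its libraries differed more within a PC3 variant than between variants. It had 34 and 135 counts in PC3 resistant libraries (0.763 and 3.41 CPM), against 28 and 108 counts in PC3 sensitive libraries (0.853 and 3.50 CPM). In both variants replicate 2 was the higher library, by 4.47-fold in resistant and 4.11-fold in sensitive cells. The log2 fold change was -0.07 ± 0.64 (SE), with an edgeR adjusted p of 0.95, and leaving out PC3 sensitive replicate 2 gave 1.27 and leaving out PC3 resistant replicate 1 gave 0.66. The PC3 means were 3.33% (resistant) and 3.48% (sensitive) of the DU145 resistant mean, and all 4 PC3 libraries lay above both DU145 sensitive libraries.

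HTR1F and GGT5 were at a handful of reads in PC3. HTR1F had 4 and 2 counts in PC3 resistant and 1 and 1 in PC3 sensitive libraries, and GGT5 had 2 and 4 counts in PC3 resistant and 2 and 0 in PC3 sensitive libraries. Both genes had 6 counts against 2 in all, a ratio of 2.43 with a counting interval of 0.435 to 24.7, and at this depth no difference was detectable. The edgeR adjusted p was 0.639 for HTR1F and 0.496 for GGT5. The 19 and 8 HTR1F counts of DU145 sensitive cells were above the PC3 counts, whereas the 1 and 2 GGT5 counts of DU145 resistant cells lay within the PC3 range.

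Genes switched between the DU145 variants were rare, and the 6 genes were among those with the higher levels. With near silent taken as at most 1 CPM in both libraries and expressed as at least 5 CPM in both, 26 genes (0.128% of those tested) were silent in DU145 sensitive and expressed in DU145 resistant cells. In the other direction 74 genes (0.366%) were silent in DU145 resistant and expressed in DU145 sensitive cells, which makes 0.494% of tested genes in both directions. All 6 genes met these limits, with GLIPR1 nearest to both of them at 7.19 CPM in a resistant library and 0.649 CPM in a sensitive one. RAMP1, a receptor accessory protein gene, lay just outside at 13.5 and 3.42 CPM in DU145 resistant and 0.196 and 0.226 CPM in DU145 sensitive libraries. By mean level in the expressing variant, IGFN1 ranked 1, HTR1F 5, GSPT2 7, TRIM38 8 and GLIPR1 9 among the 26, and GGT5 ranked 8 among the 74. In PC3, 243 genes (1.2%) were on and 44 (0.217%) off in resistant cells by the same limits, 1.42% in all, and none of the 6 genes was among them.

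The levels of the switched genes in PC3 were spread widely. Of the 26 genes on in DU145 resistant cells, 8 (30.8%) were at 5 CPM or more in all 4 PC3 libraries, 7 (26.9%) were at 1 CPM or less in all 4 and 11 (42.3%) were neither. Of the 74 genes off in DU145 resistant cells, 16 (21.6%) were at 5 CPM or more and 30 (40.5%) at 1 CPM or less in all 4. GSPT2, TRIM38 and GLIPR1 belonged to the 8, HTR1F to the 7 and GGT5 to the 30. IGFN1 belonged to neither.

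**Figure D2:**
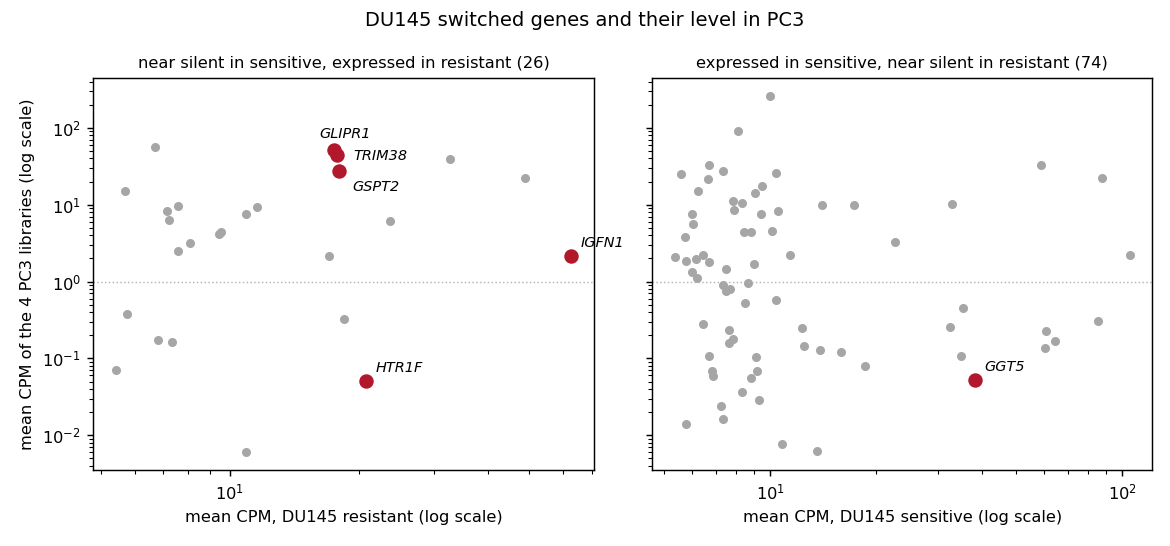
Switched DU145 genes by level. In the left panel are the 26 genes silent in DU145 sensitive and expressed in DU145 resistant cells, in the right panel the 74 with the reverse pattern, with the mean CPM in the expressing DU145 variant on the x axis and the mean CPM of the 4 PC3 libraries on the y axis (both log scales). Red points are the 6 genes, grey points the others, and NKX2-5, which had 0 counts in PC3, is drawn at the bottom of the left panel. GSPT2, TRIM38 and GLIPR1 lie high in the left panel, HTR1F low in it, and GGT5 low in the right panel.

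Other switched genes showed each of these PC3 patterns. EFNB2, an ephrin ligand gene, was at 44.6 and 53.0 CPM in DU145 resistant and 0.841 and 0.564 CPM in DU145 sensitive libraries, and at 20.2 to 26.0 CPM in all PC3 libraries, the pattern of GSPT2. NKX2-5, a homeobox gene known from heart development, was at 12.8 and 8.97 CPM in DU145 resistant and 0.028 and 0.0564 CPM in DU145 sensitive libraries, with 0 counts in every PC3 library. ILDR2 was on in resistant cells of both lines: it was at 26.5 and 20.8 CPM in DU145 resistant against 0.252 and 0.310 CPM in DU145 sensitive libraries, and at 12.2 and 12.1 CPM in PC3 resistant against 0.122 and 0.0973 CPM in PC3 sensitive libraries. Among genes off in DU145 resistant cells, LGSN was at 0.273 and 0.278 CPM in DU145 resistant against 61.5 and 67.8 CPM in DU145 sensitive libraries and at 0.227 CPM or less in PC3, the pattern of GGT5. CDA, which encodes cytidine deaminase, was at 0.303 and 0.111 CPM in DU145 resistant against 61.5 and 55.6 CPM in DU145 sensitive libraries, yet at 19.7 to 46.8 CPM in PC3.

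Since 3 of the genes on in DU145 resistant cells were well expressed in PC3, the genes that PC3 expressed and DU145 sensitive cells did not were counted in the DU145 resistant libraries. There were 61 genes at 20 CPM or more in all 4 PC3 libraries and 1 CPM or less in both DU145 sensitive libraries. In both DU145 resistant libraries 44 of the 61 were at 1 CPM or less, and 4 (EFNB2, GLIPR1, GSPT2 and TRIM38) were at 5 CPM or more. The median level of the 61 in DU145 resistant cells was 0.554% of their PC3 level, with a range of 0.124% to 217%. This count was chosen after the values of the 6 genes were seen.

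Over the 8 libraries, GSPT2, TRIM38 and GLIPR1 varied closely together, IGFN1 less closely with them, and HTR1F apart from them. On log2 CPM, the Pearson correlation was 0.979 between GSPT2 and TRIM38, 0.960 between GSPT2 and GLIPR1 and 0.958 between TRIM38 and GLIPR1. IGFN1 had 0.647, 0.554 and 0.501 with GSPT2, TRIM38 and GLIPR1 in turn, and 0.706 with HTR1F. HTR1F had -0.010, -0.127 and -0.181 with the same 3 genes. GGT5 ran opposite to most, at -0.992 with GSPT2 and -0.707 with IGFN1, and had -0.071 with HTR1F. All rest on 8 points in 4 groups, with the DU145 contrast that chose the genes among them, and they are descriptions. Among protein-coding genes past the filter, those most like each gene were TGFB1I1 (0.9980) for GSPT2, SMAP1 (0.9962) for TRIM38, RAMP1 (0.9922) for GLIPR1, EMP3 (0.9934) for IGFN1, SLC25A40 (0.9877) for HTR1F and HMX1 (0.9934) for GGT5. RAMP1 shared with GLIPR1 the gap between the DU145 resistant libraries (13.5 and 3.42 CPM) and a high level in PC3. Both largely follow from its choice by correlation over these libraries. In PC3, RAMP1 was at 18.1 and 17.1 CPM in resistant and 27.2 and 26.4 CPM in sensitive libraries. By Spearman's rank correlation different genes came first for each of the 6, such as TBC1D13 for GSPT2 and TFPI2 among those for GLIPR1.

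GLIPR1 and HTR1F differed between the 2 DU145 resistant libraries far more than most genes. Over the 11020 genes whose mean there reached 5 CPM, the median fold between the libraries was 1.16. IGFN1 (1.27-fold), GSPT2 (1.35-fold) and TRIM38 (1.26-fold) were within the bulk, as 18.3% to 29.6% of genes differed as much. With the genes themselves counted, 21 genes (0.191%) differed as much as GLIPR1 and 25 (0.227%) as much as HTR1F. Of the 25, 12 were mitochondrial genes and 3 mitochondrial pseudogenes, 18 were higher in replicate 1, and 3 (RAMP1, GLIPR1 and HTR1F) were near silent in DU145 sensitive cells. MT-ND4, a respiratory chain gene, was at 2370 CPM in resistant replicate 1 and 247 CPM in replicate 2. Whether the mitochondrial difference and the GLIPR1 and HTR1F difference are linked was not tested. Without DU145 resistant replicate 1 the DU145 log2 fold changes were lowest, 3.62 for GLIPR1 and 4.58 for HTR1F, against 4.92 and 5.76 with all libraries.

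**Figure D3:**
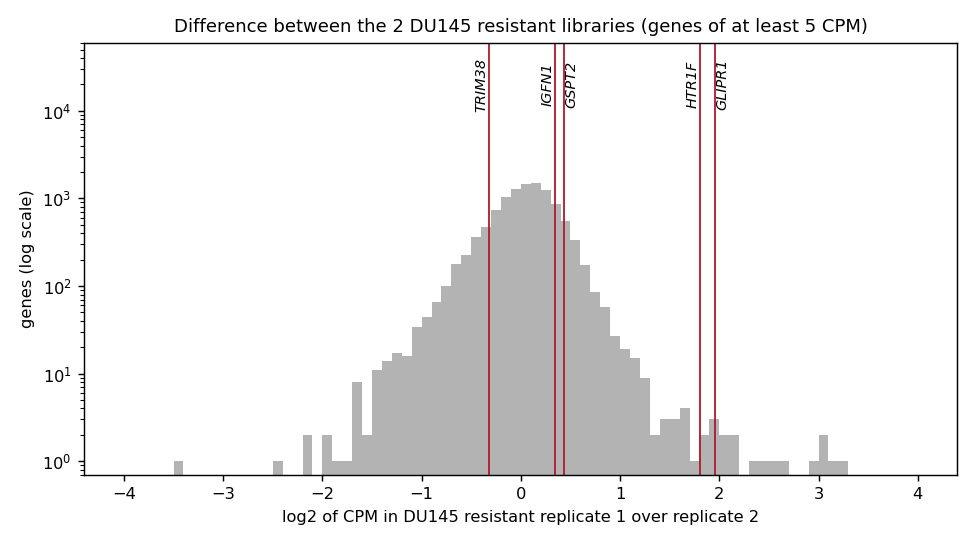
Difference between the 2 DU145 resistant libraries. The x axis is the log2 of CPM in replicate 1 over replicate 2, the y axis the number of genes on a log scale, and red lines mark the 5 genes expressed in DU145 resistant cells. GLIPR1 (3.88-fold) and HTR1F (3.49-fold) lie in the sparse right tail, and TRIM38, IGFN1 and GSPT2 lie within the main body.

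The genes around each of the 6 were examined to see whether the switch reached further along the chromosome. At GGT5 the nearest gene on each side fell with it. The 5 nearest tested genes on each side made 60 neighbours, which at HTR1F lay up to 6030 kb away. Of the 60, 5 were higher and 11 lower in DU145 resistant cells by edgeR at an adjusted p under 0.05. The median log2 fold change of the 60 was 0.01. Among all tested genes 12.4% were higher and 15.4% lower. The 5 were 2 without DU145 sensitive replicate 2 or without DU145 resistant replicate 1. In PC3, 12 of the 60 were higher and 14 lower, with 18.6% higher and 17.0% lower among all tested genes, and the 12 were 7 without PC3 sensitive replicate 2 or PC3 resistant replicate 2.

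SUSD2, which encodes a sushi domain membrane protein, is the nearest tested gene on the left of GGT5 (chr22:24181487-24189106, + strand, 30.5 kb away). It was at 1.33 and 0.972 CPM in DU145 resistant libraries, against 175 and 130 CPM in DU145 sensitive libraries. The log2 fold change was -7.05 ± 0.31 (SE), with an edgeR adjusted p of 2.89e-07. In PC3 it also fell, to 0.740 and 0.430 CPM in resistant libraries, against 5.24 and 7.69 CPM in sensitive libraries, a log2 fold change of -3.44 ± 0.31 (SE) and an edgeR adjusted p of 1.8e-05. GGT5, 30.5 kb away, had at most 4 counts in those PC3 libraries. On the right, 6.9 kb away, lies the pseudogene POM121L9P (chr22:24252005-24253289, + strand), at 0.121 and 0.0555 CPM in DU145 resistant and 5.30 and 3.13 CPM in DU145 sensitive libraries. Its log2 fold change was -5.54 ± 0.59 (SE), with an edgeR adjusted p of 8.13e-05, and as a member of a family of near copies its counts are uncertain. In PC3 its adjusted p was 0.319.

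The next genes on both sides differed by far less in DU145. CABIN1, a calcineurin binding protein gene 41.0 kb to the left, averaged 54.0 CPM in DU145 resistant and 74.0 CPM in DU145 sensitive cells, a log2 fold change of -0.45 ± 0.14 (SE) with an edgeR adjusted p of 0.0306. That call rested on each of 5 libraries, with an adjusted p of 0.176 without DU145 resistant replicate 1, 0.0556 and 0.144 without DU145 sensitive replicate 1 and 2, and 0.0622 and 0.0619 without PC3 sensitive replicate 1 and 2. SPECC1L, a cytoskeletal gene 25.7 kb to the right, averaged 88.3 CPM in DU145 resistant and 95.1 CPM in DU145 sensitive cells, with an edgeR adjusted p of 0.565. In PC3, CABIN1 had a log2 fold change of 0.62 ± 0.14 (adjusted p 0.00575, and 0.0676 without PC3 sensitive replicate 2) and SPECC1L one of 0.63 ± 0.12 (adjusted p 0.00285).

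**Figure D4:**
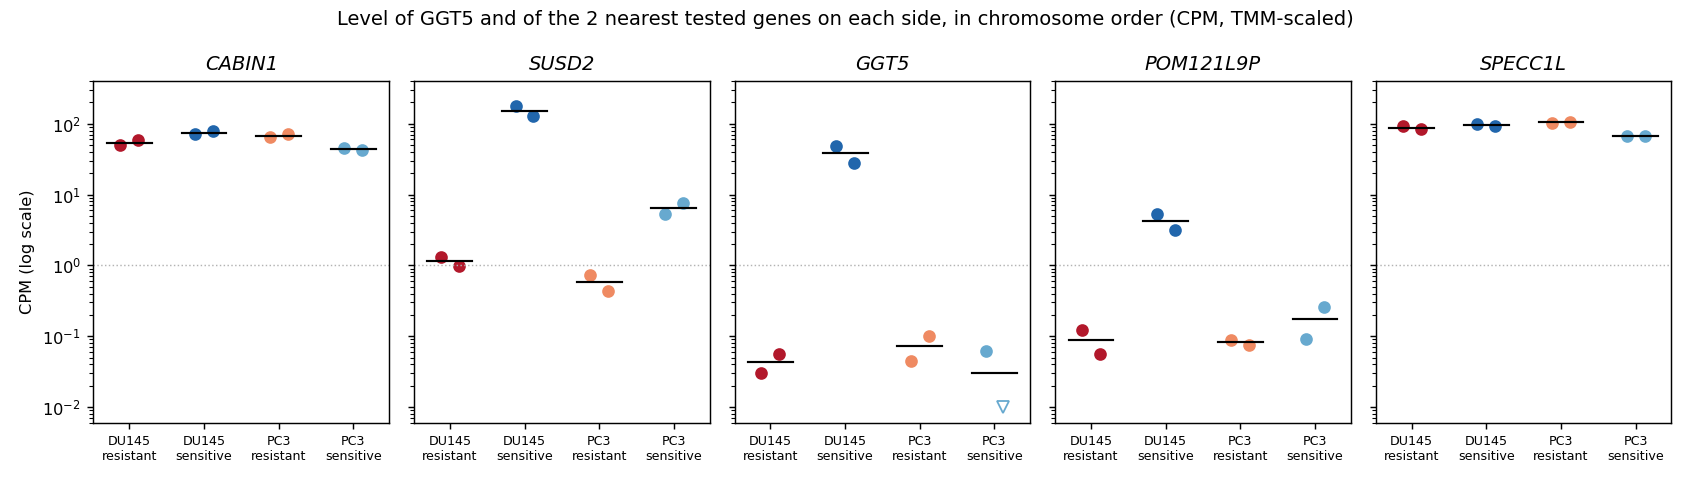
GGT5 and the 2 nearest tested genes on each side, in the order in which they lie on chromosome 22. The x axis gives the 4 groups and the y axis CPM on a log scale, points are libraries, bars are means of 2, the open triangle is a library with 0 counts and the dotted line is 1 CPM. SUSD2, GGT5 and POM121L9P are low in DU145 resistant and high in DU145 sensitive libraries, while CABIN1 and SPECC1L stay at 54.0 CPM or more on average in both DU145 variants.

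Around IGFN1, TRIM38 and HTR1F no nearest gene passed the test in DU145. CENPVP3 and SCGN, the nearest tested genes to the left of GSPT2 and TRIM38, had 0 counts in DU145. TMEM9, 19.2 kb from IGFN1, had a DU145 log2 fold change of -0.03 ± 0.12 (edgeR adjusted p 0.912), and PKP1 on its other side one of 0.20 ± 0.23 (adjusted p 0.551). The lncRNA gene U91328.19, 1.41 kb from TRIM38, had 0.23 ± 0.25 (adjusted p 0.542). CHMP2B and CGGBP1, on either side of HTR1F, had 0.01 ± 0.14 (adjusted p 0.966) and -0.01 ± 0.15 (adjusted p 0.972). KRR1 at the GLIPR1 locus rose in DU145 resistant cells by 0.73 ± 0.13 (adjusted p 0.00247), and in PC3 resistant cells it fell by 0.59 on the log2 scale (adjusted p 0.00631, and 0.0510 and 0.0600 without PC3 sensitive and PC3 resistant replicate 2 in turn).

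At GSPT2, 1 of the 10 neighbours was higher and 1 lower in DU145 resistant cells, whereas in PC3 resistant cells, where GSPT2 itself was lower, 6 were higher and 1 lower, with a median log2 fold change of 2.30. MAGED1 and NUDT11 passed the test in both lines. MAGED1, 56.8 kb away, averaged 112 CPM in DU145 resistant and 175 CPM in DU145 sensitive cells, a log2 fold change of -0.63 ± 0.17 (edgeR adjusted p 0.0172). That call was lost without DU145 sensitive replicate 2 (0.153) or DU145 resistant replicate 1 (0.0888). In PC3 it was lower in resistant cells, as was GSPT2, with a log2 fold change of -0.93 ± 0.17 (adjusted p 0.00176). NUDT11, a polyphosphate hydrolase gene 247 kb to the left, averaged 44.1 CPM in PC3 resistant and 0.222 CPM in PC3 sensitive cells, a log2 fold change of 7.62 ± 0.30 (adjusted p 7.76e-08). In DU145 its log2 fold change was 0.84 ± 0.20 (adjusted p 0.00935, which was 0.0785 when DU145 sensitive replicate 2 was left out and 0.0667 when DU145 resistant replicate 1 was). NUDT10, 406 kb from GSPT2, is a close copy of NUDT11 whose reads can be split with it. It averaged 10.1 CPM in PC3 resistant cells and had 0 counts in PC3 sensitive cells (adjusted p 1.8e-06). CENPVP3, 125 kb away, averaged 1.90 CPM against 0 counts (adjusted p 0.000378). CCNB3, a meiotic cyclin gene 1390 kb away, averaged 7.43 CPM in PC3 resistant and 0.349 CPM in PC3 sensitive cells (adjusted p 9.07e-06). SHROOM4 (929 kb away, adjusted p 0.0054) and GPR173 (1300 kb away, adjusted p 0.0117) were the other 2 higher ones. Without PC3 sensitive replicate 2 their adjusted p was 0.0500 and 0.0869, and without PC3 resistant replicate 2 it was 0.0658 and 0.0548.

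**Figure D5:**
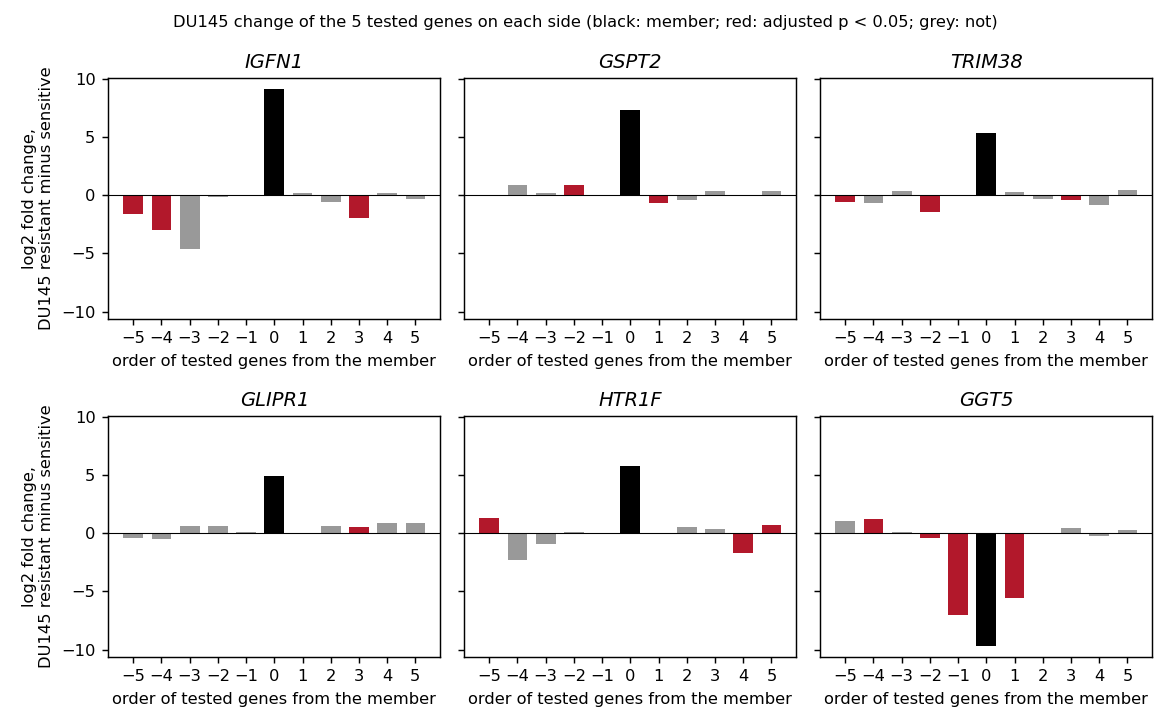
DU145 change of the 10 tested genes around each of the 6. The x axis is the order of the tested genes from the gene in black (negative to the left), leaving out genes that overlap it, and the y axis is the log2 fold change of DU145 resistant minus sensitive, with red bars for an edgeR adjusted p under 0.05 and grey bars for the others. At GGT5 the nearest genes on both sides (-7.05 and -5.54) went down with it, and at the other 5 loci the nearest bars lie between -0.63 and 0.23.

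The wider pathways of the 6 genes were described with 7 lists, of 139 entries and 103 tested genes. In DU145 resistant cells 16 list genes were higher and 16 lower by edgeR at an adjusted p under 0.05, near the 12.4% and 15.4% of all tested genes. In PC3 resistant cells 18 were higher and 24 lower, with 18.6% and 17.0% of all tested genes. Without PC3 sensitive replicate 1, PC3 sensitive replicate 2 or PC3 resistant replicate 2 the 24 were 12, 12 and 13.

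Of 20 translation termination and ribosome rescue genes, the pathway of GSPT2, 5 were higher and 0 lower in DU145 resistant cells by edgeR, with a median log2 fold change of 0.29. None of the 20 was lower at an unadjusted p under 0.05 or by DESeq2 either. The 5 were 3 without DU145 sensitive replicate 2 or DU145 resistant replicate 1. LTN1, the ligase that marks stalled nascent chains, averaged 71.9 ± 18.0 CPM in DU145 resistant and 30.2 ± 6.57 CPM in DU145 sensitive cells (SD, n = 2 each), a log2 fold change of 1.25 ± 0.20 (edgeR adjusted p 0.00105). In PC3, 3 of the 20 were higher and 8 lower, but the 8 were 1, 2, 3 and 0 without PC3 sensitive replicate 1 and 2 and PC3 resistant replicate 1 and 2 in turn. PELO, which rescues stalled ribosomes, averaged 62.2 CPM in PC3 resistant and 18.2 CPM in PC3 sensitive cells, a log2 fold change of 1.77 ± 0.14 (adjusted p 6.11e-06).

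Of 21 genes of serotonin reception, synthesis and breakdown, the setting of HTR1F, 10 were tested. HTR7, a serotonin receptor that couples to stimulatory G proteins, rose in both lines. It was at 9.55 and 9.58 CPM in DU145 resistant libraries against 0.813 and 0.762 CPM in DU145 sensitive libraries, a log2 fold change of 3.60 ± 0.29 (edgeR adjusted p 1.42e-05). In PC3 it was at 6.37 and 6.88 CPM in resistant against 1.80 and 2.56 CPM in sensitive libraries, a log2 fold change of 1.60 ± 0.26 (adjusted p 0.00092). HTR1D, the nearest measured relative of HTR1F, was at 17.1 ± 2.74 CPM in DU145 resistant and 13.2 ± 0.719 CPM in DU145 sensitive cells (SD, n = 2 each, adjusted p 0.261), and HTR1E had 0 counts in every library. In PC3, HTR1D was at 3.10 and 2.20 CPM in resistant against 0.183 and 0.227 CPM in sensitive libraries, a log2 fold change of 3.68 ± 0.35 (adjusted p 2.7e-05). MAOA, which degrades serotonin, averaged 41.9 CPM in PC3 resistant and 3.57 CPM in PC3 sensitive cells (adjusted p 1.33e-06), and in DU145 its adjusted p was 0.277. Of the 10, 1 was higher and 2 lower in DU145, and 5 were higher and 0 lower in PC3 by edgeR, with 1 lower at an unadjusted p under 0.05 and 0 by DESeq2. Among all tested genes 18.6% were higher in PC3. The 2 lower in DU145, HTR3A and SLC18A2, averaged 1.73 CPM or less in every group. HTR3A and HTR6, among the 5 higher in PC3, averaged 1.12 CPM or less. With a filter of at least 1 CPM in 4 libraries, the 2 were 0 and the 5 were 3.

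Of 24 innate sensing genes, whose signalling TRIM38 is known to tune, 6 were higher and 3 lower in DU145 resistant cells, and the 6 were 3 without DU145 sensitive replicate 2. In PC3 resistant cells 2 were higher and 11 lower, with a median log2 fold change of -0.45, beside the 17.0% of all tested genes that were lower there. The 11 were 7 without PC3 sensitive replicate 1 or 2, and the 2 were 1 without PC3 sensitive replicate 1 or either PC3 resistant replicate. IFIH1, which senses double-stranded RNA, was at 13.6 and 16.9 CPM in DU145 resistant against 5.72 and 5.61 CPM in DU145 sensitive libraries, a log2 fold change of 1.43 ± 0.21 (edgeR adjusted p 0.00065). In PC3 it was at 6.64 and 6.52 CPM in resistant against 15.8 and 19.3 CPM in sensitive libraries, a log2 fold change of -1.41 ± 0.21 (adjusted p 0.000498). TRIM21, a related ubiquitin ligase and antibody receptor, went the same way as IFIH1 in each line. Its DU145 log2 fold change was 1.32 ± 0.28 (adjusted p 0.00571). In PC3 it was -0.90 ± 0.27 (adjusted p 0.0254), a call lost without PC3 sensitive replicate 1 (0.0575), PC3 sensitive replicate 2 (0.138) or PC3 resistant replicate 1 (0.144). Of 10 tested TRIM genes near TRIM38 in type, 1 was higher and 2 lower in DU145, and the 2 were 0 without any 1 of the 4 DU145 libraries. In PC3, 1 of these was higher and 1 lower, each 0 without PC3 sensitive replicate 1, PC3 sensitive replicate 2 or PC3 resistant replicate 1, and the lower count was 2 without either DU145 sensitive replicate.

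Of 16 tested genes of the gamma-glutamyl, glutathione and leukotriene list, the setting of GGT5, 0 were higher and 3 lower in DU145 resistant cells, and 4 were higher and 1 lower in PC3 resistant cells. Leaving out DU145 sensitive replicate 1 made the 0 a 2, leaving out DU145 resistant replicate 2 made it a 1, and the 4 were 2 without PC3 sensitive replicate 1 or 2. At an unadjusted p under 0.05, 3 were higher in DU145, and DESeq2 called 1. GCLC, a subunit of the enzyme that makes the glutathione precursor, averaged 181 ± 1.34 CPM in DU145 resistant and 496 ± 26.3 CPM in DU145 sensitive cells (SD, n = 2 each), a log2 fold change of -1.46 ± 0.14 (edgeR adjusted p 3.67e-05). ABCC1, an exporter of leukotriene C4, was at 122 and 108 CPM in DU145 resistant against 270 and 264 CPM in DU145 sensitive libraries, a log2 fold change of -1.21 ± 0.13 (adjusted p 0.000107).

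Of 6 tested genes of the CAP superfamily besides GLIPR1, CRISPLD1 fell to 21.9 and 17.7 CPM in DU145 resistant libraries, against 261 and 271 CPM in DU145 sensitive libraries. The log2 fold change was -3.75 ± 0.16 (edgeR adjusted p 2.4e-07). CRISPLD2 averaged 11.7 CPM in DU145 resistant and 4.73 CPM in DU145 sensitive cells, a log2 fold change of 1.31 ± 0.37 (adjusted p 0.0223, which was 0.123 when DU145 sensitive replicate 1 was left out and 0.129 when DU145 resistant replicate 1 was). In all, 1 CAP gene was higher and 2 lower in DU145, and the 2 were 1 without DU145 sensitive replicate 2 or DU145 resistant replicate 1. In PC3 1 was higher and 0 lower by edgeR, with 0 lower at an unadjusted p under 0.05 and by DESeq2. GLIPR1L1 and GLIPR1L2, beside GLIPR1 on chromosome 12, averaged 1.14 CPM or less in every group and did not pass in either line, with edgeR adjusted p from 0.613 to 0.858.

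Of 17 tested sarcomere and Ig-like cytoskeletal genes, the setting of IGFN1, 2 were higher and 4 lower in DU145 resistant cells, and 2 were higher and 3 lower in PC3 resistant cells, with the 2 at 0 without PC3 sensitive replicate 1 or PC3 resistant replicate 2. FLNC, a muscle filamin gene, and EEF1A2, whose elongation factor product is known to bind IGFN1, were the 2 higher in DU145. FLNC averaged 391 ± 35.1 CPM in DU145 resistant and 152 ± 11.6 CPM in DU145 sensitive cells (SD, n = 2 each), a log2 fold change of 1.36 ± 0.17 (edgeR adjusted p 0.000249). EEF1A2 averaged 300 CPM in DU145 resistant and 151 CPM in DU145 sensitive cells, a log2 fold change of 0.99 ± 0.21 (adjusted p 0.00577, and 0.0598 without DU145 sensitive replicate 2). The 4 lower in DU145 were SPEG, PALLD, OBSL1 and MYOM2. SPEG, a muscle kinase gene, was at 2.82 and 2.89 CPM in DU145 resistant against 7.40 and 9.76 CPM in DU145 sensitive libraries, a log2 fold change of -1.59 ± 0.24 (adjusted p 0.00088). PALLD, the gene of the actin bundling protein palladin, averaged 141 CPM in DU145 resistant and 349 CPM in DU145 sensitive cells, a log2 fold change of -1.30 ± 0.16 (adjusted p 0.000243). The log2 fold change was -0.69 ± 0.16 for OBSL1 (adjusted p 0.00889) and -2.74 ± 0.52 for MYOM2 (adjusted p 0.00396), which was at 2.55 CPM or less. In PC3 resistant cells both were lower: FLNC had a log2 fold change of -0.70 ± 0.17 (adjusted p 0.00838, and 0.0994 and 0.0732 without PC3 sensitive and PC3 resistant replicate 2 in turn) and EEF1A2 one of -1.51 ± 0.21 (adjusted p 0.000396).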

How the data were processed

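Bulk RNA-seq libraries of 4 groups were analysed, 2 per group, with groups taken from the labels. The authors deposited raw counts per gene, made from SMART-seq reads aligned with Bowtie to hg38. Versions, counter, annotation, strand setting and the treatment of multiple matches were not given in these sources. Of 60554 rows, 56558 matched GENCODE 44, which gave coordinates. In edgeR 4.0.16 (R 4.3.3), 1 model with a mean per group took in all 8 libraries after filterByExpr (20238 genes) and TMM scaling (0.951 to 1.038). The quasi-likelihood test compared resistant minus sensitive, with p-values adjusted after Benjamini-Hochberg and a threshold of 0.05, with a common coefficient of variation of 17.1%. SE is the absolute log2 fold change over the root of F. Count ratios have exact binomial intervals on counts pooled over the 2 libraries of a variant.

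The genes and lists were chosen with earlier results of these data known. Besides these genes, the text names the genes most like each, the nearest tested neighbours, paralogs, further switched genes by difference of log2 CPM (prior count 2), and up to 4 list genes by change. A further switched gene that met this rule is not reported here. PALLD, OBSL1, MYOM2, NUDT10, CCNB3, SHROOM4, GPR173, SPECC1L, CABIN1 and NUDT11 were named after their values were seen. Alternatives were RLE scaling, DESeq2 1.42.0, other filters and limits, each line alone, the replicate number as a block and each library left out. In 4 sets of simulated PC3 counts (19373 to 19426 genes, 200 changed), 62.5% of 2-fold and 95% of 4-fold changes were recovered, and 7.22% of calls were false. These sets held a far smaller share of changed genes than the 35.6% called in PC3. The rates therefore need not hold for the PC3 tests given here.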

Additional observations from a re-analysis of the deposited data

Results flagged for a closer look

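For 18 of the genes named in the text, both DU145 resistant libraries lay on one side of both DU145 sensitive libraries and both PC3 resistant libraries lay on the other side of both PC3 sensitive libraries. In none of them was the difference between the lines tested, and the share of all tested genes with such opposed ranges is not given here. Ranges that do not overlap were common, at 61.3% of all tested genes in DU145 and 71.2% in PC3. The 18 are therefore listed for a closer look only. GSPT2 was higher in DU145 resistant cells, the contrast that chose it, and lower in PC3 resistant cells, with a PC3 log2 fold change of -0.71. KRR1, which overlaps GLIPR1, was higher in DU145 resistant and lower in PC3 resistant cells (PC3 log2 fold change -0.59). CABIN1, near GGT5, was lower in DU145 resistant and higher in PC3 resistant cells (0.62).

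Among list genes, TRIM21 (-0.90), IFIH1 (-1.41), FLNC (-0.70) and EEF1A2 (-1.51) were higher in DU145 resistant cells and had these negative PC3 log2 fold changes. MAOA (3.55) and ABCC1 (0.33) were lower in both DU145 resistant libraries and higher in both PC3 resistant libraries. For MAOA the DU145 difference did not pass edgeR's test, and for ABCC1 the PC3 difference did not.

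TGFB1I1 (-0.66), RAMP1 (-0.61) and TBC1D13 (-0.15) were higher in DU145 resistant cells and had these PC3 log2 fold changes. They were picked as most like GSPT2 or GLIPR1 over these same 8 libraries. The opposed ranges of TGFB1I1 and TBC1D13 thus largely repeat those of GSPT2 and are no separate observation. The switched gene RUNDC3B (-2.14) and CTNNA1 (-0.44) were also higher in DU145 resistant cells, with these PC3 log2 fold changes. CTNNA1 was at 3.34 CPM or less in PC3. CDH1 (2.55) and KRT8 (0.53) were lower in both DU145 resistant libraries and higher in both PC3 resistant libraries. KDR (5.95) and MYOM2 (3.49) had the same pattern, but KDR had 0 counts against 1 and 1 in DU145 and MYOM2 2 and 1 counts against 0 in PC3.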

How the results depend on the processing

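In DU145, where the choice of the 6 genes fixed the sign, the leave-one-out log2 fold changes were 8.88 to 9.27 for IGFN1, 6.98 to 7.68 for GSPT2, 5.04 to 5.72 for TRIM38, 3.62 to 5.62 for GLIPR1, 4.58 to 6.54 for HTR1F and -10.12 to -9.20 for GGT5. In PC3, with 1 library left out, the log2 fold change lay between -1.50 and 1.27 for IGFN1, -0.76 and -0.67 for GSPT2 and -1.09 and 0.11 for GLIPR1. GSPT2 in PC3 (-0.71, adjusted p 0.0138) also missed a threshold of 0.01, and GLIPR1 in PC3 passed with no filter on low counts (-0.58, adjusted p 0.0215). The cause was not tested. TRIM38 missed the threshold in PC3 in all 15 alternatives, with an adjusted p of 0.0797 to 0.545. HTR1F and GGT5 had 8 PC3 counts each, from which no stability is read.

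Without 1 library, the DU145 calls of higher genes numbered 1380 to 2467, the PC3 calls 2349 to 4020 for higher and 1983 to 3578 for lower genes, and lower list genes in PC3 12 to 24. At an adjusted p under 0.01 DU145 had 1284 genes higher and 1842 lower, PC3 had 2385 higher and 1976 lower, and of the list genes 10 were higher in DU145, 11 higher in PC3 and 12 lower in PC3. Silence at 0.5 CPM left 9 genes on and 49 off in DU145, with IGFN1, GSPT2 and GGT5 among them, and 171 on in PC3. Expression at 10 CPM left 8 on and 23 off in DU145, with TRIM38 besides those 3, and 125 on and 22 off in PC3.

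The labels do not say that replicate numbers pair libraries. For each gene, replicate 1 was taken as its difference from the group mean of log2 CPM. Over all tested genes, these differences correlated at 0.323 between DU145 variants and 0.0861 between PC3 variants. With the replicate block 26 list genes and 3228 of all genes were higher in DU145, against 16 and 2513 without it, and it changed no PC3 call of the 6 genes.

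Small uncalled changes turned sign without 1 library: in DU145 GSPT1 (-0.272 to 0.026), GGT1 (-1.08 to 0.053), SPECC1L (-0.207 to 0.0067), CHMP2B (-0.072 to 0.111), CGGBP1 (-0.117 to 0.102), TMEM9 (-0.0876 to 0.0553) and U91328.19 (-0.0305 to 0.450), in PC3 GCLC (-0.0045 to 0.220) and LTN1 (-0.178 to 0.0349). CGGBP1 was 0.0055 with DU145 fitted alone, and PC3 TMEM9 was 0.0049 with no filter and 0.0192 with at least 1 CPM in 4 libraries. With 2 libraries a group and no molecular identifiers, levels of a few reads cannot rank groups.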

Other observations

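Further genes off in DU145 resistant cells were read in the same way as GGT5. AKR1C1 and AKR1C2, aldo-keto reductases that act on steroids, are close copies whose reads can be split between them. AKR1C1 was at 0.0909 and 0.278 CPM in DU145 resistant against 104 and 107 CPM in DU145 sensitive libraries, and at 1.65 to 2.89 CPM in PC3. PPP1R14A, an inhibitor of myosin phosphatase, had 0 counts in both DU145 resistant libraries against 11.9 and 9.79 CPM in DU145 sensitive libraries, and 1 read over the 4 PC3 libraries together.

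Among genes on in DU145 resistant cells, QPCT, which forms pyroglutamate on peptides, was at 7.70 and 5.91 CPM in DU145 resistant against 0.0280 and 0.169 CPM in DU145 sensitive libraries, and at 0.379 CPM or less in PC3, the pattern of HTR1F. RUNDC3B was at 15.9 and 21.0 CPM in DU145 resistant against 0.841 and 0.677 CPM in DU145 sensitive libraries, and at 0.551 CPM or less in PC3. C4orf19 was at 8.58 and 5.89 CPM in DU145 resistant against 0.0561 and 0.0846 CPM in DU145 sensitive libraries, and at 5.0 to 7.0 CPM in PC3, the pattern of GSPT2.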
